A study of Mus musculus with 16 samples.

Results

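The 10 genes described here make, conjugate and carry bile acids in the liver or, in the case of Nr0b2, repress their synthesis. They are the rows of the deposited transcript table whose Ensembl identifiers belong to Cyp7a1, Cyp8b1, Cyp27a1, Cyp7b1, Baat, Slc27a5, Nr0b2, Abcb11, Slc10a1 and Slco1b2 in mouse build GRCm38. They were 10 of the 55487 genes in the table, and all 10 passed the filter on low values that left 11839 genes for testing. The values came from the livers of 16 male C57BL6/J mice, 4 in each group, with 1 library per mouse. Per the labels, all mice began on a diet with 60 kcal% fat at 10 weeks of age and ate it for 8 weeks before the study, so every group was obese and none was lean. For the study itself the protein content of the high-fat food was either standard (SP) or high (HP), and each mouse received daily subcutaneous vehicle or G108, a long-acting agonist of the glucagon receptor, at 2.5 nmol/kg for 22 days. Groups are named by treatment and diet, for example G108 SP or vehicle HP. Livers were taken after a 4 h fast, on day 25 per the labels. The paper's methods give a younger starting age, a shorter period on the 60 kcal% diet and an earlier last day. They also state that mice moved to the SP or HP food, both high in fat, some weeks before dosing. Diet and treatment thus did not start together. Whole liver was used, so fewer cells of a type and less RNA per cell cannot be told apart. In the deposited unit, TPM (transcript abundance per length), each gene's reads are divided by its exon length and every library sums to the same total.

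Bile acids are made from cholesterol in hepatocytes, and they serve to absorb fat in the gut and to remove cholesterol from the body. The classical route opens with Cyp7a1, and Cyp8b1 then decides how much cholic acid is made relative to the muricholic acids of the mouse. An alternative route runs through Cyp27a1 and Cyp7b1, Slc27a5 and Baat join the products to taurine, Abcb11 exports them into bile, and Slc10a1 and Slco1b2 take them back up from portal blood. When bile acids accumulate they activate the receptor encoded by Nr1h4, which induces Nr0b2, a repressor of Cyp7a1 and Cyp8b1, and Abcb11. The receptor encoded by Nr5a2 is an activator at several of these genes.

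Promoters are shown for the 3 genes with the lowest log2 fold changes after scaling in mice given G108, averaged over both diets, that have a RefSeq window, Nr0b2, Cyp8b1 and Cyp27a1, and for the exporter Abcb11. RefSeq promoter windows on GRCm38.p6 were matched by symbol for 6 of the 10 genes, and the 250 bases before the start are printed 5′ to 3′. The windows are chr4:133553126-133553375 (plus strand) for Nr0b2, chr9:121916306-121916555 (minus strand) for Cyp8b1, chr1:74713285-74713534 (plus strand) for Cyp27a1 and chr2:69342617-69342866 (minus strand) for Abcb11. Capitals mark CAAGG, the core of the element that the Nr5a2 product binds, and AGGTCA, the core shared by many nuclear receptors, on either strand.
Nr0b2: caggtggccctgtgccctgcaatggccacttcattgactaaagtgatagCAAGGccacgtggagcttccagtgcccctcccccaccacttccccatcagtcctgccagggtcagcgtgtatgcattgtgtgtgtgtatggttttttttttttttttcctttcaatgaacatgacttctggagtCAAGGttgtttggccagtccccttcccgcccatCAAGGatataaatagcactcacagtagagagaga
Cyp8b1: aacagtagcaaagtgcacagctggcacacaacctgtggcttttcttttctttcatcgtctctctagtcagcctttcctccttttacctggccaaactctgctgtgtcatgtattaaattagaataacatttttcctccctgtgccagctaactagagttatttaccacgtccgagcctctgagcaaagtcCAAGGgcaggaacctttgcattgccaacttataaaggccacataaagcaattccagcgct
Cyp27a1: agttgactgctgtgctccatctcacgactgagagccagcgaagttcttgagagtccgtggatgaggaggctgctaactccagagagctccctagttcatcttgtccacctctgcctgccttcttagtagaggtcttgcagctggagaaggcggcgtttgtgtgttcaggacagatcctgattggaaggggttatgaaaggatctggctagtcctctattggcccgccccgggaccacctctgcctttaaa
Abcb11: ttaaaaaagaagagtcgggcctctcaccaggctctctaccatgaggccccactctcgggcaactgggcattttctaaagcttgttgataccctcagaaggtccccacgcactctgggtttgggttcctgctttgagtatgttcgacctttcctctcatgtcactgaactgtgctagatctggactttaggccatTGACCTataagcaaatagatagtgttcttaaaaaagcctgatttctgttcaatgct
The Nr0b2 window held 3 copies of CAAGG and the Cyp8b1 window 1 copy, and the Abcb11 window held AGGTCA once, written as its complement. The Cyp27a1 window held neither word. Among all 32851 windows of this length, 46.0% held CAAGG at least once, 3.00% held it at least 3 times and 14.02% held AGGTCA. The core of the element bound by the cyclic AMP response factor CREB (TGACG) stood in 17.8% of windows and in none of these 4. The first and second of these words share letters and can overlap, and no printed window held both. A match describes letters and not binding.

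Per length, Slc27a5 was the most abundant of the 10 transcripts and Cyp7a1 the least. Mean TPM over the 16 libraries ran from 213 for Slc27a5 through 149 for Slc10a1, 146 for Cyp27a1, 106 for Slco1b2, 81.1 for Baat, 58.8 for Cyp8b1, 57.8 for Abcb11, 52.6 for Cyp7b1 and 26.0 for Nr0b2 to 23.3 for Cyp7a1. Some neighbours in this order did not differ beyond their spread. Slc10a1 exceeded Cyp27a1 in 8 of 16 libraries, Cyp8b1 exceeded Abcb11 in 8, and Nr0b2 exceeded Cyp7a1 in 10. Slc27a5 exceeded Slc10a1, and Cyp27a1 exceeded Slco1b2, in all 16. Mice of a group differed most in Cyp7a1, with a pooled within-group SD of 0.83 on the log2 TPM scale, followed by Cyp8b1 at 0.68 and Slc10a1 at 0.63, and least in Abcb11 at 0.21. The recovered read number behind a value was at least 373 (Nr0b2), so counting error was small beside the spread between mice.

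**Figure D1:**
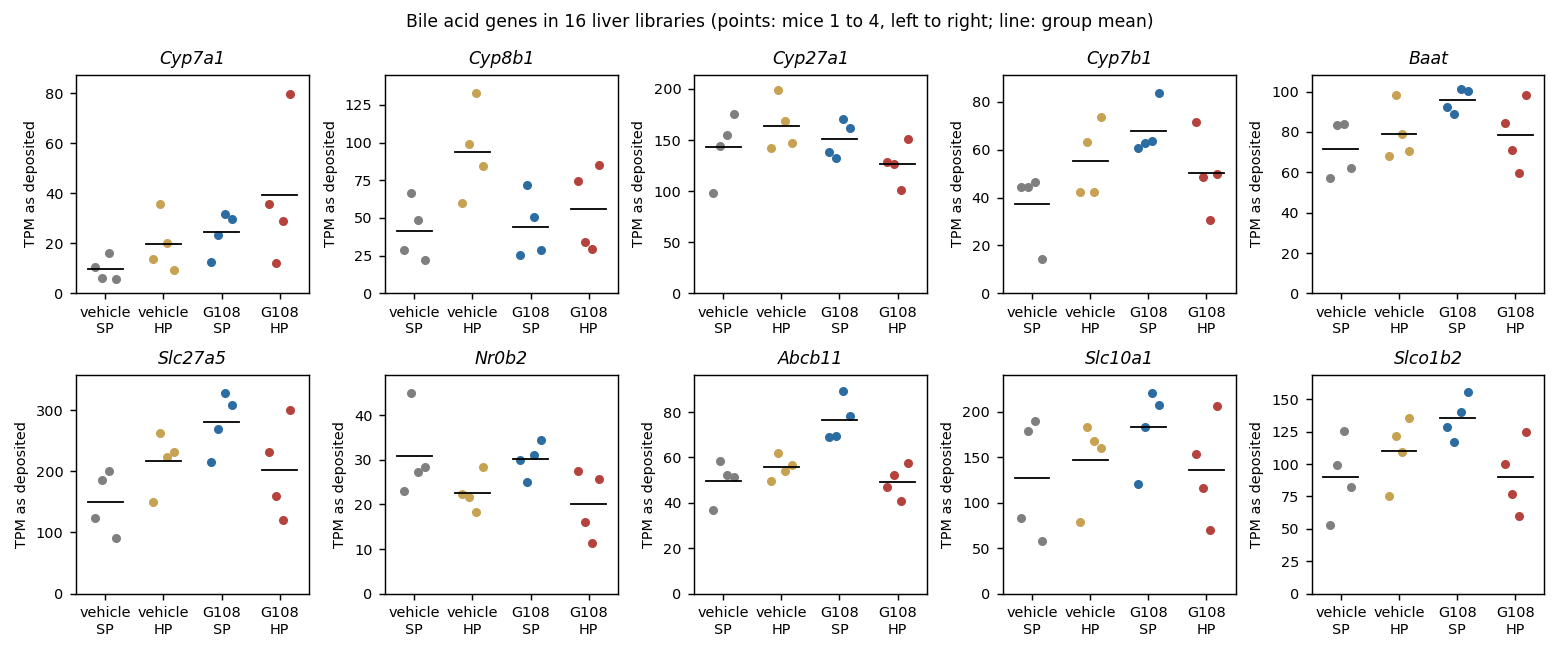
TPM as deposited (linear y axis from 0) of the 10 genes in the 4 groups, with 1 point per mouse and a line at the group mean. Abcb11, Slc27a5, Baat and Cyp7b1 lie higher in all 4 G108 SP libraries than in any vehicle SP library, and Cyp7a1 spreads most within groups.

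The scale of the libraries bears on every comparison. Genes of the mouse urinary protein (Mup) family supplied 42.6 to 49.7% of all TPM with vehicle on SP and 18.3 to 23.0% with G108 on SP, and 35.7 to 44.9% and 18.2 to 29.6% on HP. The mitochondrial genome supplied 13.8 to 24.0% in vehicle SP, 15.2 to 20.7% in vehicle HP, 16.6 to 21.02% in G108 SP and 20.97 to 37.3% in G108 HP. TPM sum to a fixed total. The gene of median rank had a log2 fold change with G108 of 0.60 on SP and 0.09 on HP, and the cause of this shift was not tested. The pseudocount compresses low genes, and among genes of a mean TPM of 5 or more the median on SP was 0.71. For HP against SP the median over all genes tested was −0.35 with G108 and 0.14 with vehicle. Values are therefore also given as scaled TPM, which are TPM divided by a median-of-ratios factor per library, so that the median gene is held near a fold change of 0. The factors were 0.68 to 0.96 in vehicle SP, 0.83 to 1.07 in vehicle HP, 1.17 to 1.54 in G108 SP and 0.84 to 1.24 in G108 HP. Recovered depth was 33.4 to 45.0 Mreads in vehicle SP, 34.5 to 44.1 in vehicle HP, 27.8 to 35.9 in G108 SP and 30.5 to 36.5 in G108 HP.

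**Figure D2:**
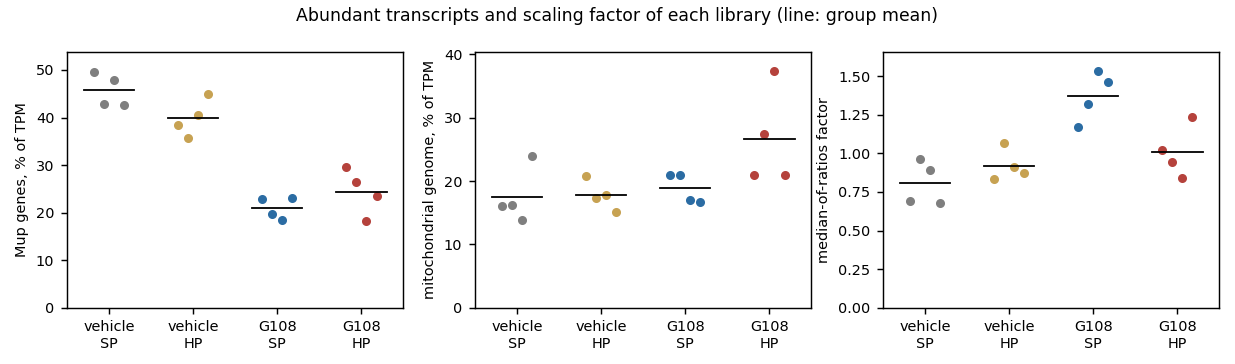
Share of TPM from Mup genes (%), share from the mitochondrial genome (%) and median-of-ratios factor of each library, by group, on linear axes from 0, with a line at the group mean. The Mup share of every G108 library, at most 29.6%, is below that of every vehicle library, at least 35.7%.

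The first question was whether G108 changed these genes on the standard protein diet. As deposited, 6 of the 10 were called higher at a limma adjusted p under 0.05, namely Cyp7a1, Slc27a5, Cyp7b1, Slco1b2, Abcb11 and Baat, and 0 lower. Of all genes tested 77.6% were called, 77% higher and 0.608% lower, so the share of the members was below the background. The median log2 fold change of the 10 was 0.63, beside 0.60 for all genes. Slc27a5, Cyp7b1, Abcb11 and Baat did not overlap between the groups, and 56.4% of all genes did not. The count fell to 2 (Abcb11 and Slc27a5) without vehicle SP mouse 4 or without G108 SP mouse 4, and to 3 (with Cyp7b1) without G108 SP mouse 3, where 8625, 8180 and 7959 of the 11839 genes were called. After scaling, 1 of the 10 was called, Cyp27a1, which was lower, where 2.72% of all genes were called, 1.33% higher and 1.39% lower. The median of the 10 was then −0.14. Cyp27a1, Baat and Nr0b2 were lower with no overlap, as 9.21% of all genes did not overlap in either direction. The scaled call of Cyp27a1 was lost without vehicle SP mouse 3 and without G108 SP mouse 2, 3 or 4, and Baat was called as well without G108 SP mouse 1. In those fits 214, 175, 158, 159 and 471 of the 11839 genes were called, in that order.

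On the high protein diet none of the 10 passed the threshold on either scale. Limma called 0 of 10 on TPM as deposited, with 0 at an unadjusted p under 0.05, where 1.11% of all genes were called, and 0 of 10 on scaled TPM, with 4 at an unadjusted p under 0.05, where 1.22% were called. At that unadjusted threshold stood 1410 of the 11839 genes as deposited and 1337 after scaling. As deposited, 9 of the 10 log2 fold changes were negative, with a median of −0.17 beside 0.09 for all genes. No member was free of overlap as deposited, where 8.88% of all genes were. After scaling, Cyp27a1 and Abcb11 were lower in G108 HP with no overlap, where 8.15% of all genes did not overlap. Without vehicle SP mouse 4 the scaled fit called Cyp27a1 lower, with 210 genes called in all.

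Diet alone gave no call. For either comparison of HP with SP, within G108 or within vehicle, and for the interaction of G108 and diet, limma called 0 of the 10 and 0% of all genes on TPM as deposited, and 0 of the 10 after scaling. With G108, 3 of the 10 had an unadjusted p under 0.05 as deposited, and with vehicle 1 did, as did 4 for the interaction, where 5325, 374 and 5685 of the 11839 genes did. After scaling these numbers were 1, 2 and 0 members, and 639, 466 and 854 genes. With G108, Abcb11 was lower on HP with no overlap as deposited, where 20.7% of all genes did not overlap, and Cyp27a1 was higher on HP with no overlap after scaling, where 4.27% did not. With vehicle no member was free of overlap as deposited, where 1.47% of genes were, and Cyp8b1 was higher on HP with no overlap after scaling, where 2.01% were. Without G108 HP mouse 4, Abcb11, Slco1b2 and Nr0b2 were called lower on HP with G108, and Abcb11, Slco1b2 and Slc27a5 were called for the interaction, where 5047 and 5202 of the 11839 genes were called, a larger share than that of the members. Abcb11 was also called on HP with G108 without vehicle SP mouse 4 or G108 SP mouse 1, with 1736 and 3012 genes called. Abcb11 and Slc27a5 were called for the interaction without vehicle SP mouse 2 or G108 SP mouse 1, with 3466 and 3956 genes called. A limma F test for any difference among the 4 groups called Abcb11 (adjusted p = 0.015) and Cyp7a1 (adjusted p = 0.037) as deposited, where 60.8% of all genes were called, and Cyp27a1 (adjusted p = 0.025) after scaling, where 2.78% were called. Without 1 library these counts ran from 0 to 4 and from 0 to 2, and in the fits that changed them 3010 to 8013 genes were called as deposited and 223 to 281 after scaling. They were 0 without G108 SP mouse 3 or 4 on both scales, and 0 after scaling without vehicle SP mouse 3 or vehicle HP mouse 2 or 3. As deposited Abcb11 alone was called without vehicle SP mouse 1 or 4, and Slc27a5 and Cyp8b1 were added without vehicle HP mouse 1 or G108 HP mouse 3 or 4. After scaling Nr0b2 was added without G108 HP mouse 1.

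**Figure D3:**
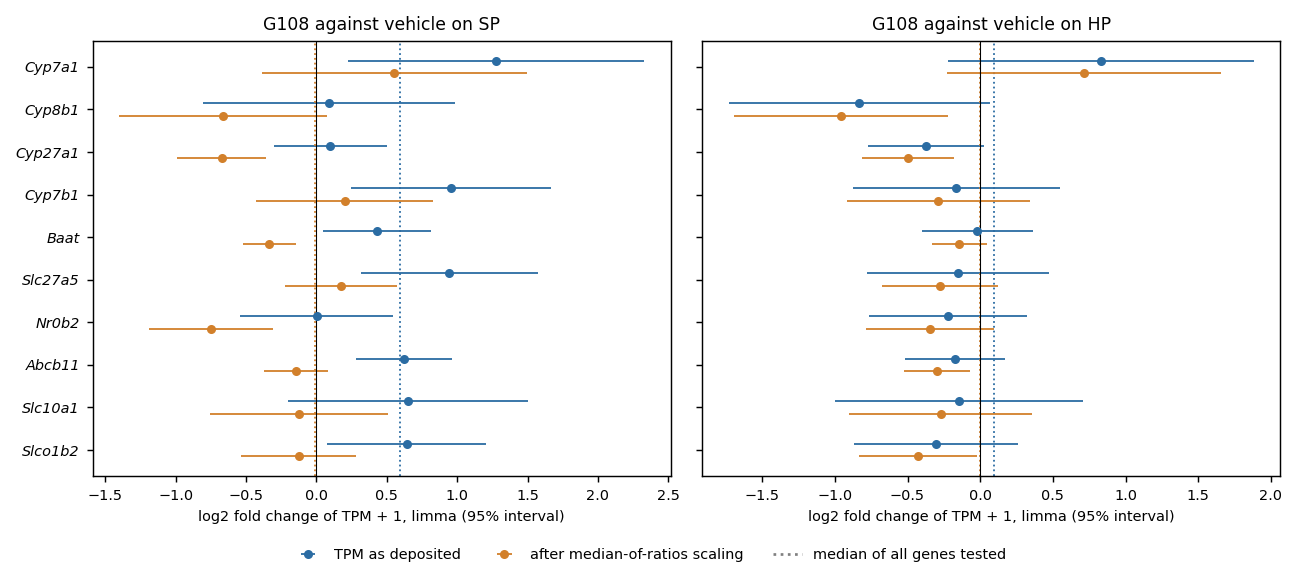
Log2 fold change of TPM + 1 with G108 relative to vehicle, SP at left and HP at right, with 95% intervals from limma, as deposited (blue) and after median-of-ratios scaling (orange). Dotted lines mark the median of all genes tested, at 0.60 and 0.09 as deposited, and scaling moves the 10 genes of the left panel down by 0.73 to 0.77.

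Averaging the effect of G108 over both diets, a contrast added after the values were seen, used all 16 mice for each gene. As deposited, Cyp7a1 was called higher, with a log2 fold change of 1.06 ± 0.35 (SE, limma adjusted p = 0.020), and the other 9 were not called, where 62% of all genes were called, 61% higher and 1.01% lower. After scaling, Cyp27a1, Nr0b2 and Baat were called lower, with log2 fold changes of −0.58 ± 0.10 (SE, limma adjusted p = 0.0033), −0.55 ± 0.15 (adjusted p = 0.039) and −0.24 ± 0.06 (adjusted p = 0.036). Of all genes 5.81% were called on that scale, 2.86% higher and 2.95% lower. Cyp8b1 had the lowest scaled fold change of the 10, at −0.81 ± 0.24, and was not called (adjusted p = 0.070). Among all genes tested, the scaled fold changes of Cyp8b1, Cyp27a1 and Nr0b2 stood at percentiles 0.963, 2.00 and 2.28, and that of Cyp7a1 at 98.5. Cyp27a1 was called with each of the 16 libraries left out in turn. Nr0b2 and Baat were both lost without vehicle SP mouse 2, G108 SP mouse 3 or 4, or G108 HP mouse 2, 3 or 4, where 459 to 559 genes were called. As deposited, Slc27a5 was called beside Cyp7a1 without G108 HP mouse 3, with 8084 genes called. Since the directions of Baat differ between the scales, its lower level holds only relative to the median gene. The calls of Cyp27a1 and Nr0b2 also hold only relative to the median gene. As deposited their log2 fold changes over both diets were −0.14 and −0.11 (limma adjusted p = 0.36 and 0.58).

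**Figure D4:**
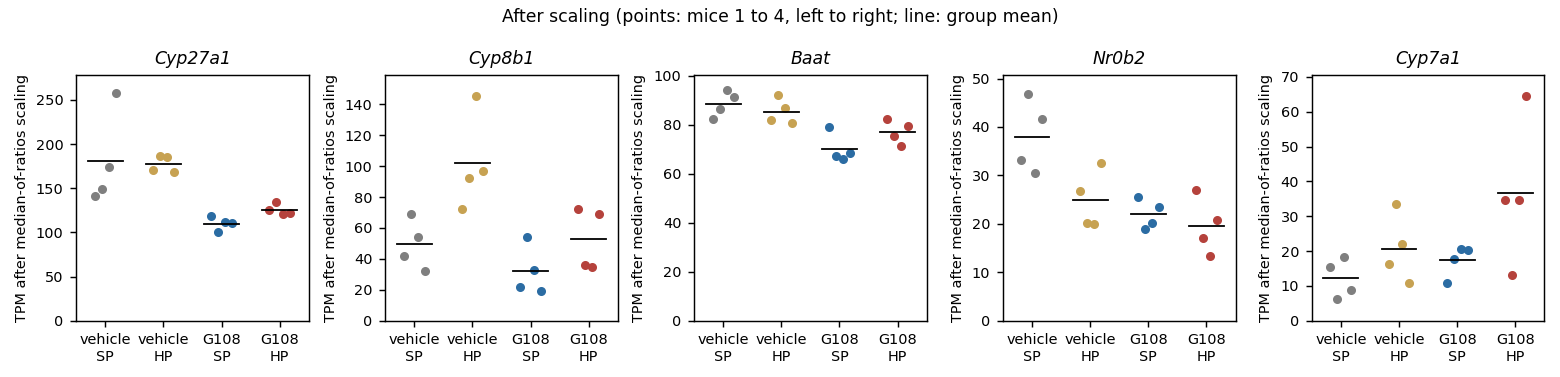
Scaled TPM (linear y axis from 0) of Cyp27a1, Cyp8b1, Baat, Nr0b2 and Cyp7a1 in the 4 groups, with 1 point per mouse and a line at the group mean. All 8 G108 libraries lie at or below 134 for Cyp27a1, and all 8 vehicle libraries at or above 142.

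Cyp7a1 (ENSMUSG00000028240, chr4:6265612-6275633, minus strand), the rate-limiting enzyme of the classical route, had the largest log2 fold change of the 10 with G108 on SP as deposited. It stood at 10.6, 6.00, 16.3 and 5.95 TPM in the 4 vehicle SP mice, at 13.6, 35.8, 20.0 and 9.37 in vehicle HP, at 12.7, 23.5, 31.6 and 29.9 in G108 SP and at 35.6, 12.3, 29.1 and 79.7 in G108 HP. Means were 9.72 ± 4.91 (SD, n = 4), 19.7 ± 11.6, 24.4 ± 8.53 and 39.2 ± 28.7 TPM in that order. Vehicle SP had the lowest mean, and every pair of groups overlapped. With G108 the log2 fold change was 1.28 ± 0.50 (SE) on SP (limma adjusted p = 0.028) and 0.83 ± 0.50 on HP (adjusted p = 0.57). After scaling they were 0.55 ± 0.44 (adjusted p = 0.50) and 0.72 ± 0.44 (adjusted p = 0.62), so the sign held on both scales and the call did not.

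Cyp8b1 (ENSMUSG00000050445, chr9:121914356-121916305, minus strand), which directs synthesis to cholic acid, was highest in vehicle HP. Its levels were 29.0, 66.6, 48.4 and 21.8 TPM in vehicle SP, 60.1, 98.7, 133 and 84.6 in vehicle HP, 25.3, 71.7, 50.9 and 28.5 in G108 SP and 74.2, 34.2, 29.3 and 85.0 in G108 HP. The 2 vehicle groups overlapped only in 1 vehicle SP library as deposited and not after scaling. For HP against SP with vehicle the log2 fold change was 1.23 ± 0.42 (SE, limma adjusted p = 0.73) as deposited and 1.04 ± 0.35 (limma adjusted p = 0.83) after scaling. For G108 against vehicle on HP it was −0.83 ± 0.42 (adjusted p = 0.47) and −0.96 ± 0.35 (adjusted p = 0.25). On SP the value was 0.09 as deposited and −0.67 after scaling, neither of them called.

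The ratio of Cyp8b1 to Cyp7a1 does not depend on the scale of a library. On the log2 scale it was 1.45, 3.47, 1.57 and 1.88 in vehicle SP, 2.14, 1.46, 2.73 and 3.17 in vehicle HP, 0.99, 1.61, 0.69 and −0.07 in G108 SP and 1.06, 1.47, 0.01 and 0.09 in G108 HP. All 8 G108 libraries lay below the vehicle median, and the ranges overlapped between 1.45 and 1.61. G108 minus vehicle was −1.29 ± 0.58 (SE) on SP and −1.72 ± 0.52 on HP, with two-sided exact permutation p = 0.086 and 0.057, where 4 mice against 4 cannot give less than 0.0286. Over both diets, in the contrast added after the values were seen, the difference was −1.50 ± 0.39, a ratio of 0.353 of that with vehicle (exact permutation p = 0.0024 over 4900 relabellings within diets). Adjusted over the 6 ratios this p was 0.015, and over all 36 ratio tests it was 0.088. Leaving out any 1 library kept the difference between −1.65 and −1.27, with an exact p of at most 0.0049. HP minus SP was −0.15 with G108 and 0.28 with vehicle (exact p = 0.83 and 0.71).

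**Figure D5:**
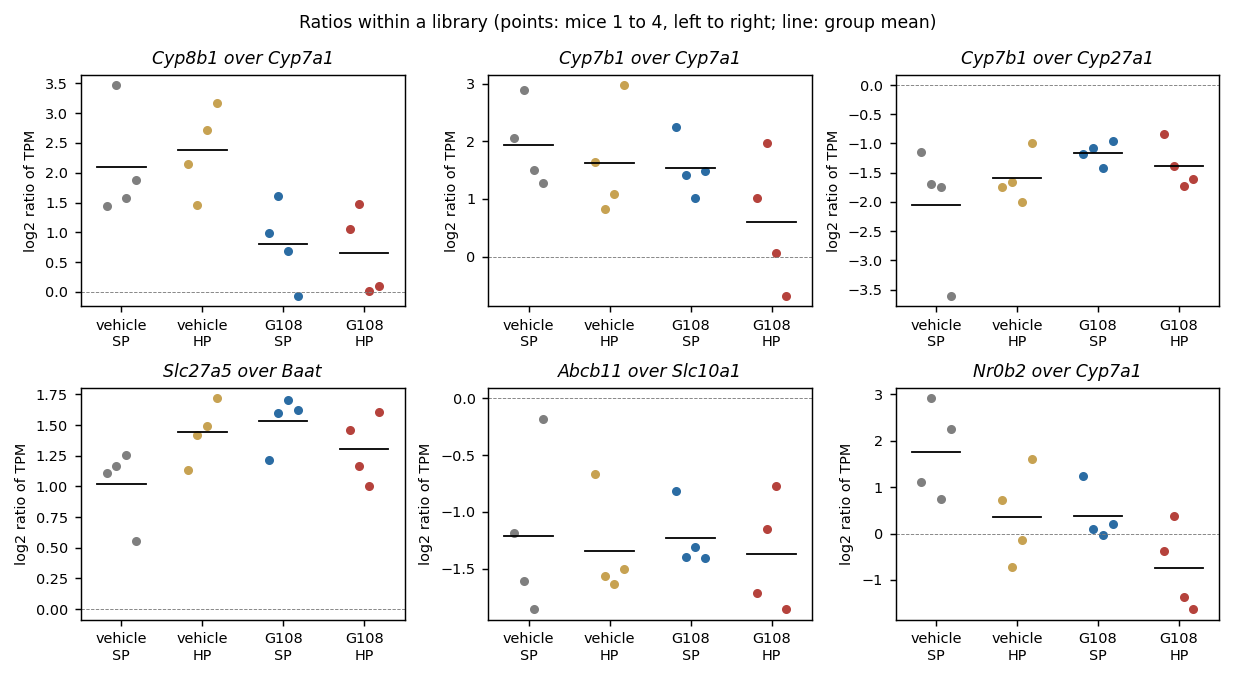
Log2 ratio of TPM between 2 genes within each library, for 6 pairs, by group, with 1 point per mouse, a line at the group mean and a dashed line at equal levels. In the first panel the G108 libraries lie between −0.07 and 1.61 and the vehicle libraries between 1.45 and 3.47.

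In the alternative route Cyp27a1 had the only scaled call on SP. Cyp27a1 (ENSMUSG00000026170, chr1:74713574-74737892, plus strand), the mitochondrial sterol hydroxylase that opens this route, showed 97.9, 144, 155 and 175 TPM in vehicle SP and 138, 133, 171 and 161 in G108 SP. It showed 142, 199, 169 and 147 TPM in vehicle HP and 128, 127, 101 and 151 in G108 HP. These groups overlapped as deposited. As scaled TPM it was 142, 149.7, 174 and 258 in vehicle SP, 171, 186, 185 and 168 in vehicle HP, 118, 100.3, 111 and 110.1 in G108 SP and 125, 134, 121 and 122 in G108 HP, so that no G108 library reached any vehicle library on either diet. The scaled log2 fold change was −0.67 ± 0.15 (SE, limma adjusted p = 0.023) on SP and −0.50 ± 0.15 (adjusted p = 0.15) on HP. As deposited it was 0.10 and −0.37, with neither called.

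Cyp7b1 (ENSMUSG00000039519, chr3:18071950-18243338, minus strand), the oxysterol hydroxylase of the alternative route, stood at 44.4, 44.5, 46.4 and 14.4 TPM in vehicle SP and at 60.8, 62.7, 63.6 and 83.5 in G108 SP. Every G108 SP library was above every vehicle SP library. Its log2 fold change on SP was 0.96 ± 0.33 (SE, limma adjusted p = 0.017) as deposited and 0.20 ± 0.29 (adjusted p = 0.72) after scaling. On HP its levels were 42.5, 63.2, 42.4 and 73.7 TPM with vehicle and 71.5, 48.6, 30.5 and 49.7 with G108, with a log2 fold change of −0.16 (adjusted p = 0.95). The log2 ratio of Cyp7b1 to Cyp27a1 was higher with G108 on SP by 0.89 ± 0.55 (exact permutation p = 0.086) and on HP by 0.21 ± 0.29 (exact p = 0.43). The log2 ratio of Cyp7b1 to Cyp7a1, the branch enzymes of the 2 routes, differed by −0.39 on SP and −1.04 on HP (exact p = 0.43 and 0.26).

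Slc27a5 and Baat act one after the other, Slc27a5 activating bile acids with coenzyme A and Baat attaching the amino acid. Slc27a5 (ENSMUSG00000030382, chr7:12988346-12998192, minus strand) stood at 123, 186, 201 and 91.5 TPM in vehicle SP, 149.9, 262, 223 and 232 in vehicle HP, 216, 269, 329 and 308 in G108 SP and 232, 159, 120.0 and 299 in G108 HP. Baat (ENSMUSG00000039653, chr4:49489422-49506557, minus strand) stood at 57.0, 83.3, 83.9 and 62.1 TPM in vehicle SP, 68.2, 98.1, 79.1 and 70.4 in vehicle HP, 92.5, 88.8, 101 and 100.2 in G108 SP and 84.3, 71.2, 59.8 and 98.4 in G108 HP. Both were highest in G108 SP, above every vehicle SP library. On SP the log2 fold change of Slc27a5 was 0.94 ± 0.30 (SE, limma adjusted p = 0.010) as deposited and 0.17 ± 0.19 (adjusted p = 0.62) after scaling. That of Baat was 0.43 ± 0.18 (adjusted p = 0.039) and turned to −0.34 ± 0.09 (adjusted p = 0.062) after scaling. On HP both were near 0 as deposited, at −0.15 for Slc27a5 and −0.02 for Baat. The scaled level of Baat varied least of the 10 within groups, with an SD of 0.097 on the log2 scale. The log2 ratio of Slc27a5 to Baat differed by 0.51 ± 0.19 with G108 on SP (exact permutation p = 0.057) and differed by −0.13 ± 0.18 on HP (exact p = 0.49). The interaction was −0.65 ± 0.26 (exact permutation p = 0.034, adjusted p = 0.37 over 30 ratio tests).

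Nr0b2 (ENSMUSG00000037583, chr4:133553376-133556536, plus strand), the repressor of Cyp7a1 and Cyp8b1 and the gene whose promoter above holds 3 copies of CAAGG, had a log2 fold change near 0 as deposited. Its levels were 22.9, 45.0, 27.2 and 28.3 TPM in vehicle SP, 22.4, 21.6, 18.3 and 28.4 in vehicle HP, 29.9, 25.0, 31.0 and 34.4 in G108 SP and 27.6, 16.1, 11.3 and 25.8 in G108 HP. The log2 fold change with G108 was 0.00 ± 0.26 (SE) on SP and −0.22 ± 0.26 on HP. As scaled TPM it was 33.2, 46.7, 30.5 and 41.6 in vehicle SP, 26.9, 20.2, 20.0 and 32.5 in vehicle HP, 25.5, 18.9, 20.2 and 23.4 in G108 SP and 27.0, 17.1, 13.4 and 20.8 in G108 HP. Every vehicle SP library was above every G108 SP library, and the HP groups overlapped. The scaled log2 fold change was −0.75 ± 0.21 (limma adjusted p = 0.074) on SP and −0.35 ± 0.21 (adjusted p = 0.60) on HP. The log2 ratio of Nr0b2 to Cyp7a1 had a mean of 1.75 in vehicle SP, 0.37 in G108 SP, 0.36 in vehicle HP and −0.74 in G108 HP (exact permutation p = 0.086 for G108 on SP and 0.17 on HP). Over both diets the difference was −1.24 ± 0.45 (exact permutation p = 0.016, adjusted p = 0.047 over 6 ratios and 0.28 over 36). HP minus SP was of like size, −1.39 with vehicle and −1.12 with G108 (both exact p = 0.11).

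Abcb11 (ENSMUSG00000027048, chr2:69238282-69342616, minus strand), the bile salt export pump, was the clearest of the transporters as deposited. It stood at 36.7, 58.5, 52.4 and 51.6 TPM in vehicle SP, 49.6, 61.9, 54.1 and 56.7 in vehicle HP, 68.9, 69.5, 89.2 and 78.3 in G108 SP and 46.9, 52.4, 40.8 and 57.4 in G108 HP. All 4 G108 SP libraries were above the other 12. The log2 fold change was 0.62 ± 0.16 (SE, limma adjusted p = 0.0041) for G108 on SP, −0.17 ± 0.16 (adjusted p = 0.79) for G108 on HP and −0.80 ± 0.23 (adjusted p = 0.080) for the interaction, beside medians over all genes of 0.60, 0.09 and −0.49. After scaling the values were −0.14 ± 0.11 (adjusted p = 0.47), −0.30 ± 0.11 (adjusted p = 0.25) and −0.15 ± 0.15 (adjusted p = 0.65). The antisense gene Gm13613 and the processed pseudogene Gm13614 overlap Abcb11 on the other strand, and the higher of their means was 13.8 TPM. Whether the authors counted by strand is not given in the sources used here. Reads of Abcb11 and of these genes therefore cannot be told apart where they overlap.

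For the uptake carriers Slc10a1 and Slco1b2 every pair of groups overlapped. Slc10a1 (ENSMUSG00000021135, chr12:80953183-80968705, minus strand), the sodium-dependent carrier, stood at 83.7, 178, 189.7 and 58.4 TPM in vehicle SP and 121, 183, 221 and 207 in G108 SP. On HP it stood at 78.7, 183, 168 and 160.2 with vehicle and 153, 116, 69.7 and 207 with G108. Slco1b2 (ENSMUSG00000030236, chr6:141629518-141686646, plus strand), a sodium-independent carrier, stood at 53.1, 99.2, 125 and 82.0 TPM in vehicle SP and 128, 117, 140.4 and 156 in G108 SP. On HP it stood at 75.0, 121, 109 and 136 with vehicle and 99.7, 77.0, 60.2 and 125 with G108. On SP the log2 fold changes were 0.65 ± 0.40 (SE, limma adjusted p = 0.15) for Slc10a1 and 0.64 ± 0.27 (adjusted p = 0.038) for Slco1b2, beside 0.60 for the median gene, and −0.12 and −0.13 after scaling. On HP they were −0.15 (adjusted p = 0.97) and −0.30 (adjusted p = 0.77) as deposited, beside 0.09 for the median gene, and −0.27 (adjusted p = 0.83) and −0.43 (adjusted p = 0.41) after scaling. The HP values of Slco1b2 stood at percentiles 4.98 and 4.54 of all genes tested. The log2 ratio of Abcb11 to Slc10a1, export over uptake, differed by −0.02 ± 0.40 on SP and −0.03 ± 0.34 on HP (exact permutation p = 0.97 and 0.94).

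Within groups no correlation between members passed its test after scaling. Deviations from the group means over the 16 mice gave Pearson r = −0.38 (permutation p = 0.25) and Spearman rho = −0.47 (p = 0.12) for Nr0b2 and Cyp7a1, and r = −0.50 without the 2 farthest libraries. For the other 5 pairs tested r lay between 0.07 for Nr0b2 with Cyp8b1 and 0.52 for Slc10a1 with Slco1b2 (permutation p = 0.81 and 0.11), rho between 0.0029 and 0.52 (p = 1.00 and 0.095), and the smallest p adjusted over the 6 pairs was 0.54. As deposited r was 0.81 for Slc10a1 with Slco1b2 and 0.88 for Baat with Slc27a5 (permutation p = 0.0034 and 0.0014), values that include the shared scale of each library, and that of Nr0b2 with Cyp7a1 was 0.08.

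Among the regulators, 2 of 18 were called higher with G108 on SP on both scales. Nr5a2, the activator named above, had 3.31 to 5.05 TPM in vehicle SP and 10.2 to 12.8 in G108 SP, with log2 fold changes of 1.21 as deposited (limma adjusted p = 0.00019) and 0.54 after scaling (adjusted p = 0.013). On HP the values were 0.33 (adjusted p = 0.45) and 0.22 (adjusted p = 0.47). Ppargc1a, a coactivator that glucagon signalling induces, had 0.449 to 1.11 TPM in vehicle SP, 2.43 to 4.73 in G108 SP, 0.786 to 0.986 in vehicle HP and 1.77 to 2.77 in G108 HP. It was higher on SP by 1.38 as deposited and 0.89 after scaling (adjusted p = 8.1e-05 and 0.0027), and on HP by 0.73 and 0.66 (both adjusted p = 0.034). Its mean TPM was 0.74 in vehicle SP and 0.91 in vehicle HP, so it passed the filter of 1 TPM only through the G108 groups. Its calls are those of a gene kept through the groups where it was high. Nr1h4, the bile acid receptor, had log2 fold changes on SP of 0.10 as deposited (adjusted p = 0.62) and −0.67 after scaling (adjusted p = 0.099), and on HP of 0.11 and −0.02. Hnf4a, Fgfr4 and Klb, a hepatocyte factor and the receptor pair for the intestinal signal that represses Cyp7a1, were called higher on SP as deposited, by 0.91, 0.87 and 0.70, and not after scaling, at 0.14, 0.13 and 0.16. In all, 16 of 18 regulators were called higher and 0 lower on SP as deposited, beside 77% and 0.608% of all genes, and 2 higher and 1 lower after scaling, beside 1.33% and 1.39%. The lower one was Nr1i3, a xenobiotic receptor named here after its values were seen, at −1.18 (limma adjusted p = 0.019) after scaling and −0.42 (adjusted p = 0.082) as deposited. On HP 1 was called higher on each scale, Ppargc1a, where 97 of all 11839 genes were called higher as deposited and 76 after scaling.

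Of 14 further synthesis enzymes, 13 were tested, with 8 called higher and 0 lower on SP as deposited, 0 called after scaling, and 0 called on HP on either scale. Their median log2 fold change on SP was 0.82 as deposited and 0.05 after scaling. Of 14 further transporters, 11 were tested, with 9 called higher and 0 lower on SP as deposited, 0 after scaling and 0 on HP, and medians on SP of 0.80 and 0.14. Of all genes 77% were called higher on SP as deposited, a larger share than that of the synthesis enzymes and a smaller one than that of the transporters. After scaling 2.72% of all genes were called on SP. On HP 1.11% were called as deposited and 1.22% after scaling. Counts of 0 in lists this short are thus near the background. Averaged over both diets after scaling, 2 of the 13 synthesis enzymes and 2 of the 11 transporters were called lower, and 0 higher. Of all genes 2.95% were called lower and 2.86% higher there. As deposited, 4 of the 13 and 8 of the 11 were called higher in that contrast and 0 lower, beside 61% and 1.01% of all genes.

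Markers of liver cell types were set beside these results. The 4 hepatocyte markers found in the table (of 5 listed) were present in every group, at a summed level of 25451 to 38309 scaled TPM in vehicle SP, 32887 to 36478 in vehicle HP, 32165 to 37173 in G108 SP and 28259 to 36623 in G108 HP. Of 7 periportal hepatocyte markers, 4 were called higher with G108 on SP after scaling and 0 on HP, beside 1.33% of all genes called higher on SP and 1.22% called on HP. Their sum was 1113 to 2760 scaled TPM in vehicle SP, 1893 to 2630 in vehicle HP, 2748 to 4039 in G108 SP and 3439 to 4380 in G108 HP, so it moved with G108, and its part in the results was not tested. The most abundant of the 7 were Ass1, a urea cycle gene (mean TPM 1532), and Pck1, a gluconeogenic gene (mean TPM 713). The paper reports that G108 raised urea cycle genes and several gluconeogenic genes. A shift of liver zones and induction of these genes therefore cannot be told apart here. The sum of the 8 pericentral markers was 2318 to 4137, 2938 to 4405, 2653 to 3539 and 2286 to 3671 scaled TPM in the same order, with 2 of 7 tested called higher on SP and 0 on HP, beside the same shares of all genes, although their median log2 fold change on SP was −0.16. Markers of other cells were sparse. In scaled TPM over all 16 libraries the 7 cholangiocyte markers summed to 13.7 to 24.9, with 5 at a mean TPM under 1, among them Krt19 and Krt7, the 6 Kupffer cell markers to 21.2 to 71.0, the 5 stellate markers to 7.66 to 13.7, the 5 adipocyte markers to 1.10 to 2.49 and the 6 exocrine pancreas markers to 5.41 to 11.2. Lep and Prss2 were listed at 0 in all libraries. After scaling, none of these 5 lists had a member called with G108 on SP or on HP. The 5 endothelial markers summed to 17.0 to 20.1 scaled TPM in vehicle SP, 15.7 to 18.9 in vehicle HP, 13.9 to 15.4 in G108 SP and 15.3 to 20.2 in G108 HP, so the SP groups did not overlap. All 4 that were tested had a negative scaled log2 fold change on SP, with a median of −0.28, 3 at an unadjusted p under 0.05 and 0 called, beside 2098 of 11839 genes at that p. This sum moved with the scaled values of Cyp27a1, Nr0b2 and Baat on SP, and its part in them was not tested. The 5 blood cell markers summed to 656 to 3094, with 843 to 3094 in vehicle SP, 997 to 1307 in vehicle HP, 656 to 919 in G108 SP and 986 to 2388 in G108 HP, and with 0 called after scaling on either diet. In vehicle SP the lowest hepatocyte sum and the highest blood sum both came from mouse 4, and in G108 HP both came from mouse 3. These mice also had the highest mitochondrial shares of their groups, 24.0% and 37.3% of TPM. Their part in the results was not tested.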

How the data were processed

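Liver RNA from 16 mice was sequenced, 1 library per mouse and 4 per group. Per the labels and the paper's methods, the authors checked reads with FastQC 0.11.8, aligned them with HISAT2 2.0.5 to GRCm38, counted genes with featureCounts and tested counts with DESeq2 1.36.0. The strand setting is not given in the sources used here. The authors deposited TPM for 55487 genes, which sum to the same total in each library, and the read counts were not used here.

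Groups came from the labels. The main test was limma 3.58.1 (R 4.3.3) on log2(TPM + 1) with an intensity trend, over the 11839 genes that averaged 1 TPM or more, using all 16 libraries, with Benjamini-Hochberg adjustment over all genes and calls at an adjusted p under 0.05. Fold changes are on that log2 scale and understate changes of low genes. Scaled TPM used median-of-ratios factors over 11591 genes. Whole reads were recovered from the steps of low TPM values (98.98% of 93578 values whole within 0.02) and tested with voom on 11811 genes. Two-sided exact permutation tests served for ratios within a library, adjusted over 30 tests, and relations by 100000 permutations. Other alternatives were a pseudocount of 0.1, no filter, a mean TPM of at least 5, totals without 37 mitochondrial and 49 Mup genes, the compared groups alone, mouse number as a block, array quality weights, and each library left out. Contrasts averaged over diets or treatments, and the scaled fits that left out a library or used the block, were added after the values were seen. The scripts were tested on simulated data.

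The members and lists were chosen with earlier results of these data known. The text names all 10 members, list genes called on both scales, and Nr1h4, Nr5a2, Hnf4a, Ppargc1a, Fgfr4 and Klb. The lists held further synthesis enzymes, further transporters, regulators, and markers of hepatocytes (also pericentral and periportal), cholangiocytes, Kupffer, endothelial, stellate and blood cells, adipocytes and exocrine pancreas.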

Additional observations from a re-analysis of the deposited data

Results flagged for a closer look

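Of 64 groups of 4 values tested with Dixon's criterion, 4 held a library set apart from the rest, and chance sets apart about 1 group in 20. Cyp7b1 was set apart at 14.4 TPM, the lowest, in vehicle SP mouse 4, and at 83.5 TPM, the highest, in G108 SP mouse 4. Vehicle SP mouse 4 also had the highest mitochondrial share of its group, 24.0% of TPM, and the highest scaled Cyp27a1, 258. The log2 ratio of Abcb11 to Slc10a1 was the highest of its group at −0.67 in vehicle HP mouse 1 and at −0.81 in G108 SP mouse 1.

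The effect of G108 on the log2 ratio of Slc27a5 to Baat differed between the diets by −0.65 (two-sided exact permutation p = 0.034), with 0.51 on SP and −0.13 on HP. It was 1 of 30 ratio tests with a p under 0.05, and its adjusted p was 0.37.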

How the results depend on the processing

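The count of members called with G108 on SP, 6 as deposited, was 3 with no filter, 1 after median-of-ratios scaling, 0 on totals without mitochondrial and Mup genes and 1 by voom on recovered reads. Of all genes, 9185 of 11839 were called as deposited, 10490 of 32076 with no filter and 322 of 11839 after scaling. On totals without mitochondrial and Mup genes 275 of 11839 were called, and by voom 350 of 11811. For the mean of both diets, 1 as deposited, the member count was 0 with no filter, 3 after scaling, 4 with array quality weights and 3 by voom. Over all genes 7335 were called as deposited, 6985 with no filter, 688 after scaling and 712 by voom. For any difference among the groups, 2 as deposited, the member count was 1 with no filter, 1 after scaling, 1 without mitochondrial and Mup genes and 8 with weights. Over all genes 7200 were called as deposited, 5667 with no filter, 329 after scaling and 328 without mitochondrial and Mup genes. Weights also gave 2 for G108 on HP, 7 for HP against SP with G108, 4 for the interaction and 3 for the mean of both treatments, each 0 in the main test. In these fits 2126, 8502, 7267 and 4923 of 11839 genes were called, and 8868 for the mean of both diets and 10684 for any difference. Voom called 0 members for G108 on HP, where 139 of 11811 genes were called. It also called 0 members for either diet comparison and for the interaction, where 0 genes were called.

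All 10 members were above 0 on SP as deposited and 7 were below 0 after scaling, Cyp8b1 (−0.67), Nr0b2 (−0.75) and Slc10a1 (−0.12), which had no call on either scale, and 4 others. These were Cyp27a1 (−0.67 after scaling, −0.68 by voom), Baat (−0.34, −0.34, and −0.27 without mitochondrial and Mup genes), Abcb11 (−0.14, −0.15 and −0.081) and Slco1b2 (−0.13, −0.13 and −0.064). Baat averaged over both diets was −0.24 after scaling and −0.24 by voom. The causes were not tested beyond the change of total. The Cyp8b1 to Cyp7a1 ratio on HP was −1.67 (exact p = 0.0286, the smallest possible) with a pseudocount of 1. Correlations as deposited were 0.076 for Nr0b2 with Cyp7a1, 0.81 for Slc10a1 with Slco1b2 and 0.88 for Baat with Slc27a5, and that of Nr0b2 with Cyp8b1 was −0.25 without the 2 farthest libraries.

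With each library left out, counts of members ran from 2 to 6 (G108 on SP), 0 to 3 (HP against SP with G108), 0 to 3 (interaction), 1 to 2 (mean of both diets) and 0 to 4 (any difference), and after scaling from 0 to 2 (G108 on SP), 0 to 1 (G108 on HP), 1 to 3 (mean of both diets) and 0 to 2 (any difference). Of all 11839 genes, in the same order, 7854 to 9348, 0 to 5047, 0 to 5202, 5712 to 8084 and 3010 to 8013 were called. After scaling these were 158 to 471, 17 to 210, 459 to 871 and 223 to 389. Log2 ratios ran as follows. Cyp8b1 to Cyp7a1 ran from −1.56 to −0.83 for G108 on SP, −2.02 to −1.45 on HP and −0.44 to 0.12 for HP against SP with G108. Cyp7b1 to Cyp7a1 ran from −1.41 to −0.52 for HP against SP with G108, −0.75 to 0.013 with vehicle and −0.95 to −0.49 for the mean of both diets. Cyp7b1 to Cyp27a1 ran from 0.37 to 1.19 for G108 on SP, −0.070 to 0.75 for HP against SP with vehicle and 0.29 to 0.70 for the mean of both diets. Slc27a5 to Baat ran from 0.36 to 0.62 for G108 on SP and −0.75 to −0.49 for the interaction. Abcb11 to Slc10a1 ran from −0.24 to 0.32 for G108 on SP, −0.23 to 0.19 on HP, −0.34 to 0.021 for HP against SP with G108, −0.36 to 0.21 with vehicle, −0.35 to 0.22 for the interaction and −0.13 to 0.14 for the mean of both diets. Nr0b2 to Cyp7a1 ran from −1.50 to −0.82 for HP against SP with G108 and −0.11 to 0.68 for the interaction.

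Mouse numbers mark different mice. Over 24 same-numbered pairs of libraries the correlation of deviations ran from −0.57 to 0.53 (median −0.03), and 4 of 16 libraries were closest to their own number, so the numbers did not pair the libraries. With mouse number as a replicate block, 5 members were called for G108 on SP (without Baat), 1 for the mean of both diets, 1 (Abcb11) for any difference and 0 in the other comparisons. Of all 11839 genes, 8954 were called for G108 on SP, 6673 for the mean of both diets and 5774 for any difference. With the block after scaling, Nr0b2 in place of Cyp27a1 was called on SP and for any difference, and Cyp27a1 and Nr0b2 for the mean of both diets. There 213, 225 and 525 of all genes were called, in that order.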
